A study of Mus musculus with 15 samples.

Results

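The 10 genes described here carry TGF-beta, BMP and Notch signals into liver macrophages. They are the receptor genes Acvrl1, Eng, Tgfbr1 and Tgfbr2, the SMAD genes Smad3, Smad4, Smad6 and Smad7, the receptor gene Notch2 and the Notch transcription factor gene Rbpj. They were chosen by name, as receptors and mediators known to maintain Kupffer cells, and their probes were found through RefSeq accessions. All 10 had a probe on the array, among 20145 named genes, and all 10 were among the 13390 genes with enough signal to be tested, each above background on all 15 arrays.

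The study sorted liver macrophages with high F4/80, a macrophage surface protein, and split them by CD11c, an integrin, in a mouse model of nonalcoholic steatohepatitis (NASH). There were 3 groups of 5 arrays. Wildtype male mice on a standard diet gave CD11c-negative macrophages; no age was found for them. Male mice lacking the melanocortin 4 receptor (MC4R-KO), which were 8 weeks old when the Western diet began and ate it for 20 weeks, gave CD11c-negative and CD11c-positive macrophages. Each sample was RNA pooled from 7 to 9 mice. The labels do not say whether the pools of a group, or both NASH fractions, came from separate mice, so each p-value measures the spread among arrays, and that spread may be technical. Genotype and diet differ together between the wildtype and NASH groups and cannot be told apart.

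TGF-beta binds the receptor TGFBR2, which recruits and activates TGFBR1, and the pair phosphorylates SMAD2 and SMAD3, which enter the nucleus with SMAD4. BMP9 and BMP10 bind ALK1, the product of Acvrl1, with endoglin, the product of Eng, as coreceptor, and signal through SMAD1, SMAD5 and SMAD9, again with SMAD4, while SMAD6 and SMAD7 are inhibitory members of the family. NOTCH2 is cut on contact with a ligand, and its freed inner part binds RBPJ on DNA and turns its target genes on. In mouse liver, ligands of these pathways come in part from sinusoidal endothelial and stellate cells and help monocytes become Kupffer cells, the resident macrophages of the sinusoid.

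The windows in front of 3 of these genes are shown because they stand for the patterns below. Eng fell in both NASH fractions, Tgfbr1 rose most and Rbpj, by its brighter probe, rose in each step. Each is the 250 bases before the transcription start from RefSeq (mouse GRCm38.p6, plus strand, 5′ to 3′), with motif letters in capitals.
Eng, chr2:32646345-32646594: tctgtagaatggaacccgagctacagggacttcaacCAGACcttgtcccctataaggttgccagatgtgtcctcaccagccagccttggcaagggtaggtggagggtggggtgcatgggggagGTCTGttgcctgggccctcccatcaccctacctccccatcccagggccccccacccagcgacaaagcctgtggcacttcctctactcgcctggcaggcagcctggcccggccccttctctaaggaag
Tgfbr1, chr4:47352972-47353221: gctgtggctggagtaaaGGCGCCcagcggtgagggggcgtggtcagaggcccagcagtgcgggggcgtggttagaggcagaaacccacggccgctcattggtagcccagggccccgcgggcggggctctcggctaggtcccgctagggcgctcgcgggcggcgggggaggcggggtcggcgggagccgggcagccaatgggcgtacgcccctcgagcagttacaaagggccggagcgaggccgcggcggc
Rbpj, chr5:53590096-53590345: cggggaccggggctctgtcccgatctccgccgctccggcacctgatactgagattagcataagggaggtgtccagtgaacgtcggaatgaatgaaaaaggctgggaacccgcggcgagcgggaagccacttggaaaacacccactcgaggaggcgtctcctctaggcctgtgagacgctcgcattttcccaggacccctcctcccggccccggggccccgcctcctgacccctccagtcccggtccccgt
The letters searched on both strands were the palindromic SMAD box GTCTAGAC, the CAGAC box (GTCTG on the other strand), GGCGCC, a GC element of BMP-responsive genes, and the RBPJ site GTGGGAA, and in these windows no match overlapped another. Eng held CAGAC boxes 214 and 127 bases before the start, and Tgfbr1 held a GGCGCC 233 bases before it. The Rbpj window held none of the 4. Of 32841 mouse promoter windows of this length 42.2% held CAGAC, 9.59% GGCGCC, 5.41% the RBPJ letters and 0.167% the palindrome, so a CAGAC match is common. RefSeq windows were found for 7 of the 10 genes, the others being Acvrl1, Smad4 and Smad7. Besides Eng, CAGAC stood 160 bases before the start of Tgfbr2 and 203 bases before a second listed start of Tgfbr1; the RBPJ letters and the palindrome were in no window of the 7 genes.

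A level here is the log2 signal of a gene's brightest probe minus the 75th percentile of its array, so 0 is that percentile and 1 unit is 2-fold; levels of different genes are not comparable, since probes differ. On each array 45.8% to 58% of spots rose well above background, and replicate arrays correlated at 0.9927 to 0.9985. The macrophage markers Adgre1 (F4/80) and Csf1r were bright in all groups (7.34, 7.74 and 7.31 for Adgre1 in wildtype, NASH CD11c-negative and NASH CD11c-positive cells, 9.29, 9.34 and 8.97 for Csf1r), as was Lyz2, the lysozyme gene (7.31, 8.21 and 7.95). The brightest Kupffer cell markers were Cd5l (9.77, 9.58 and 9.36), Clec4f (9.30, 8.08 and 7.29) and Vsig4 (9.18, 8.19 and 7.97). Mc4r, the deleted gene, was above background on no array, wildtype included, so it checks no label, and Itgax, which encodes CD11c, read 4.21, 5.93 and 7.29. RNA of other cells moved between the groups. The summed signal of 15 sinusoidal endothelial markers, none of them at background in any group, ran from 456 to 497 on wildtype arrays, 260 to 277 on NASH CD11c-negative arrays and 171 to 178 on NASH CD11c-positive arrays. The sum over 5 recruited monocyte markers ran from 57.4 to 61.8, from 264 to 297 and from 191 to 206. In such bulk samples fewer cells of a type and less RNA per cell cannot be told apart.

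**Figure D1:**
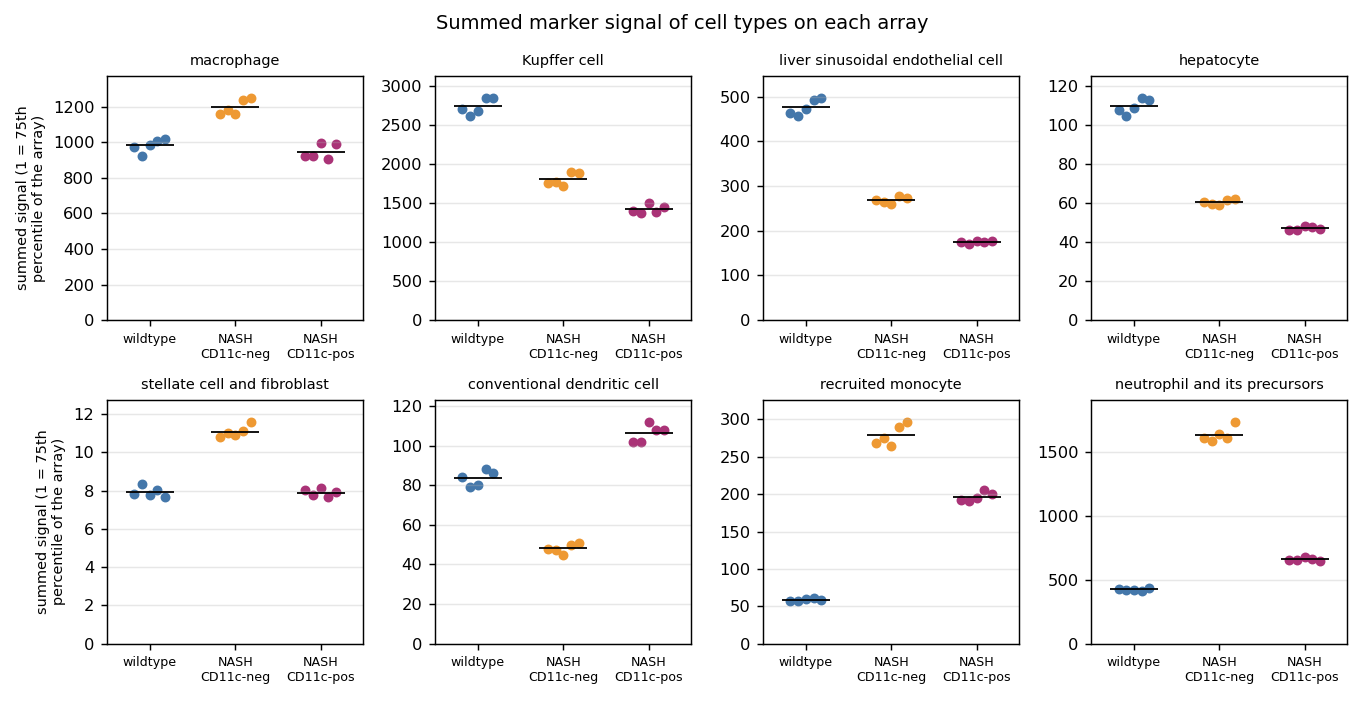
Summed signal of marker genes of 8 cell types on each array (y axis, linear, in units of the array's 75th percentile; x axis, the 3 groups), with 1 point per array and a line at the group mean. Endothelial and hepatocyte sums were highest in wildtype cells and lowest in NASH CD11c-positive cells. Macrophage, stellate cell, monocyte and neutrophil sums peaked in NASH CD11c-negative cells under this scaling.

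The first comparison asked how CD11c-negative macrophages of diseased liver differed from those of healthy liver. Tgfbr1 was 2.68-fold higher, Smad3 1.67-fold and Rbpj 1.49-fold higher, and Eng was 1.53-fold lower. By limma, with p-values adjusted over all genes, 8 of the 10 passed at 0.05, 5 higher and 3 lower, in a comparison in which 76.8% of all genes passed (48.3% higher and 28.5% lower). The share of the 10 is near that background. Of the 10 genes 1, Tgfbr1, changed at least 2-fold, as did 11.4% of all genes, and for 7 of the 10 wildtype and NASH CD11c-negative arrays did not overlap, against 64.1% of all genes. The median change of the 10 was 0.09 and that of all genes 0.13 (log2). Quantile normalization moved that median by 0.14 here and by 0.13 for NASH CD11c-positive against wildtype cells; it turned the split of all calls from 62.9% higher to 48.5%, and that of the 10 from 5 higher and 3 lower to 3 higher and 6 lower. For that reason many changes of the 10 genes against wildtype are also given relative to the median gene or after quantile normalization. Other values are not adjusted for that shift.

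The second comparison set CD11c-positive against CD11c-negative macrophages of the same disease, and shares the CD11c-negative arrays with the first. The changes were smaller: Notch2 was 1.43-fold, Rbpj 1.38-fold and Tgfbr1 1.15-fold higher, and Eng was 1.35-fold lower. Of the 10 genes 7 passed, 4 higher and 3 lower, against 53.1% of all genes (29.9% higher, 23.2% lower), and 7 did not overlap, against 39.5%. Changes of at least 2-fold were seen for 0 of the 10 and for 2.85% of all genes. The medians were 0.06 for the 10 and 0.01 for all genes.

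NASH CD11c-positive against wildtype cells, which shares its groups with the other comparisons, gave 9 of 10 genes past the threshold, 6 higher and 3 lower, against 77.6% of all genes (51.4% higher, 26.3% lower). By their brightest probes Tgfbr1, Eng and Rbpj differed at least 2-fold, against 13.7% of all genes. The second probes of Tgfbr1 and Rbpj gave 0.99 and 0.37 (log2), less than 2-fold. For 8 of the 10 genes the groups did not overlap, against 69.3% of all genes. The split of all calls was 66.2% higher, and 53.6% after quantile normalization, which left 4 of the 10 higher and 4 lower. The median change of the 10 was 0.23 and that of all genes 0.16. Arrays lay on 2 slides that each held all 3 groups. On slide 1 alone 8, 6 and 8 of the 10 passed in the 3 comparisons in the order given, and on slide 2 alone 9, 6 and 10.

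**Figure D2:**
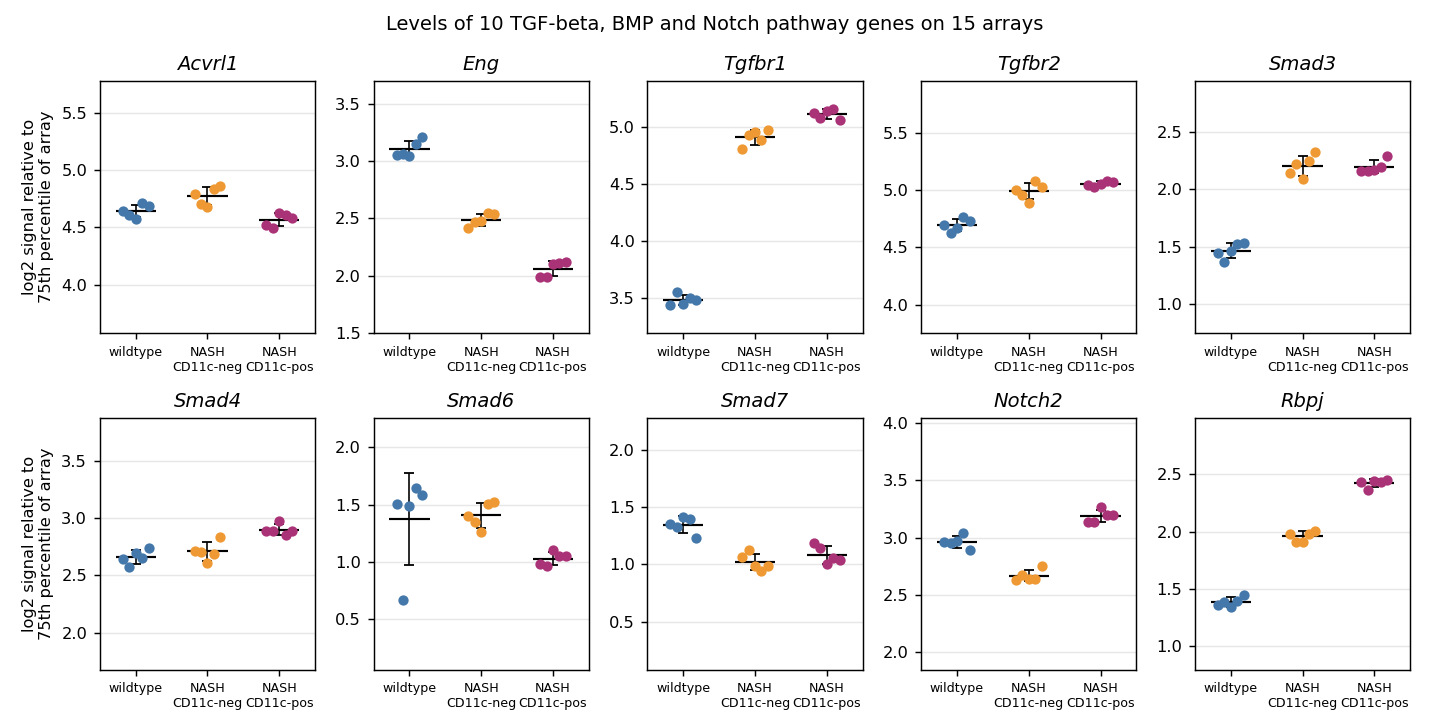
Level of each of the 10 genes on every array (y axis, log2 signal relative to the array's 75th percentile, each panel 2.2 units tall; x axis, the 3 groups), with bars for the mean ± SD of 5 arrays. Tgfbr1 and Rbpj lie higher and Eng lower on every NASH array than on any wildtype array, Notch2 is lowest in NASH CD11c-negative cells, and wildtype replicate 2 stands apart for Smad6.

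Among the receptors, Tgfbr1, the signalling kinase of the TGF-beta receptor pair, moved most. It read 3.44, 3.55, 3.45, 3.50 and 3.48 on the wildtype arrays, 4.81, 4.92, 4.95, 4.88 and 4.97 on the NASH CD11c-negative arrays and 5.12, 5.07, 5.14, 5.15 and 5.05 on the NASH CD11c-positive arrays. The 3 groups did not overlap and rose in that order. The rise from wildtype to NASH CD11c-negative cells was 1.42 ± 0.03 (log2, SE; limma adjusted p = 4.18e-14), 1.29 relative to the median gene, and exceeded the absolute change of 93.9% of all genes. NASH CD11c-positive cells stood a further 0.20 ± 0.03 higher (adjusted p = 0.000184), which made 1.62 against wildtype, 1.46 relative to the median gene. Slide 1 alone gave 1.41, 0.21 and 1.62 for the 3 comparisons and slide 2 alone 1.43, 0.19 and 1.62. A second, dimmer Tgfbr1 probe rose in each comparison too, by 0.77, 0.22 and 0.99, so direction was shared. Its rises against wildtype were smaller, and its step between the NASH fractions was near that of the brighter probe. The recruited monocyte sum was higher in both NASH fractions than in wildtype cells but lower in CD11c-positive than in CD11c-negative cells; its part in the Tgfbr1 rise was not tested.

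Tgfbr2, the ligand-binding partner, changed less. Its levels were 4.69, 4.62, 4.67, 4.77 and 4.73 in wildtype cells, 5.00, 4.96, 4.89, 5.08 and 5.03 in NASH CD11c-negative cells and 5.04, 5.03, 5.06, 5.08 and 5.07 in NASH CD11c-positive cells. Both NASH groups lay above all wildtype arrays and overlapped each other. The rise of 0.295 ± 0.04 in NASH CD11c-negative cells (adjusted p = 2.78e-06) was 0.16 relative to the median gene and turned to -0.06 after quantile normalization, so its direction rests on the scaling. Against wildtype, NASH CD11c-positive cells were 0.36 ± 0.04 higher (adjusted p = 2.89e-07), and 0.05 under quantile normalization. CD11c-positive and CD11c-negative NASH cells differed by 0.07 ± 0.04, which did not pass (adjusted p = 0.14). There the second Tgfbr2 probe disagreed, with a fall of 0.30 (-0.30, adjusted p = 0.00179 over probes), while it was 0.49 and 0.19 higher than wildtype in the NASH groups.

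Acvrl1 encodes ALK1, the type I receptor of BMP9 and BMP10. It read 4.64, 4.61, 4.57, 4.71 and 4.69 in wildtype cells, 4.79, 4.70, 4.68, 4.84 and 4.86 in NASH CD11c-negative cells and 4.52, 4.49, 4.63, 4.61 and 4.58 in NASH CD11c-positive cells. The wildtype arrays overlapped both NASH groups, and the NASH groups did not overlap each other. The difference of 0.13 ± 0.04 between NASH CD11c-negative and wildtype cells (adjusted p = 0.0109) equalled the median gene, from which it differed by -0.0037, and became -0.22 after quantile normalization. From CD11c-negative to CD11c-positive NASH cells Acvrl1 fell by 0.21 ± 0.04 (-0.21, adjusted p = 0.000783), and quantile normalization gave -0.18. NASH CD11c-positive cells stood at -0.08 ± 0.04 against wildtype, which did not pass (adjusted p = 0.108). With slide as a block that difference was -0.10 and passed (adjusted p = 0.00129), as it did at -0.40 after quantile normalization.

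Eng, whose product endoglin presents BMP9 and BMP10 to ALK1, fell in both steps. Its levels were 3.05, 3.06, 3.04, 3.15 and 3.21 in wildtype cells, 2.42, 2.46, 2.48, 2.54 and 2.54 in NASH CD11c-negative cells and 1.99, 1.99, 2.10, 2.11 and 2.12 in NASH CD11c-positive cells. No group overlapped another. The fall was -0.62 ± 0.04 from wildtype to NASH CD11c-negative cells (adjusted p = 4.26e-09), or -0.75 relative to the median gene, and -0.43 ± 0.04 from there to NASH CD11c-positive cells (adjusted p = 8.25e-07). NASH CD11c-positive cells were thus 2.06-fold below wildtype, -1.04 ± 0.04 (adjusted p = 8.46e-12), and slides 1 and 2 alone gave -1.06 and -1.07. Quantile normalization deepened the falls against wildtype to -0.84 and -1.29.

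Endoglin is abundant on endothelial cells, and sinusoidal endothelial transcripts fell alongside it. Of the 15 endothelial markers measured, 14 fell from wildtype to NASH CD11c-negative cells and 1, Kdr, rose, with a median of -0.86, and from there to NASH CD11c-positive cells 12 fell and 1 rose, with a median of -0.53. Clec4g, an endothelial lectin, read 7.09, 6.35 and 5.28 in wildtype, NASH CD11c-negative and NASH CD11c-positive cells, the scavenger receptor gene Stab2 6.46, 5.55 and 5.41, and Egfl7 6.25, 5.53 and 4.77. The part of endothelial RNA in the changes of Eng, Acvrl1 and Smad6 was not tested. Most Kupffer cell markers fell too. From wildtype to NASH CD11c-negative cells 7 of 9 fell, Id3 rose and 1 did not pass, with a median of -0.53. From there to NASH CD11c-positive cells 9 of 9 fell.

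**Figure D3:**
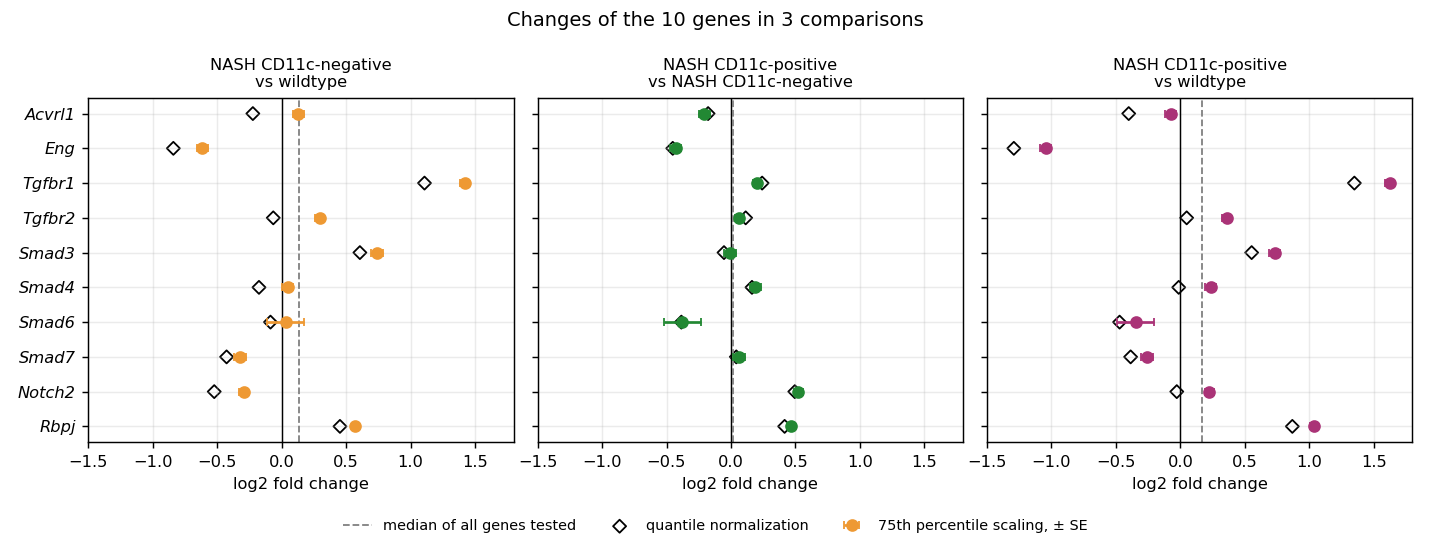
Log2 fold change of each gene in the 3 comparisons (x axis; filled points ± SE from limma on values scaled to the 75th percentile, open diamonds after quantile normalization, dashed line at the median of all genes tested). Tgfbr1, Smad3, Rbpj, Eng and Smad7 kept their side of 0 against wildtype under both scalings, while Acvrl1, Tgfbr2, Smad4 and Smad6 crossed it in NASH CD11c-negative cells and Smad4 and Notch2 in NASH CD11c-positive cells.

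Of the signal-carrying SMADs, Smad3, which TGF-beta receptors phosphorylate, read 1.45, 1.37, 1.46, 1.52 and 1.53 in wildtype cells, 2.14, 2.22, 2.09, 2.25 and 2.32 in NASH CD11c-negative cells and 2.16, 2.16, 2.17, 2.20 and 2.29 in NASH CD11c-positive cells. Both NASH groups lay above wildtype without overlap and overlapped each other. It rose by 0.74 ± 0.05 in NASH CD11c-negative cells (adjusted p = 1.64e-09) and by 0.73 ± 0.05 in NASH CD11c-positive cells (adjusted p = 1.61e-09), or 0.61 and 0.57 relative to the median gene. The NASH fractions differed by -0.01 ± 0.05 (adjusted p = 0.879). A dim second probe, above background on 2, 4 and 3 of 5 arrays of the groups in the same order, gave 1.61 and 1.30 against wildtype.

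Smad4, the shared partner of both branches, read 2.65, 2.58, 2.70, 2.65 and 2.74 in wildtype cells, 2.71, 2.71, 2.61, 2.69 and 2.84 in NASH CD11c-negative cells and 2.89, 2.89, 2.98, 2.85 and 2.89 in NASH CD11c-positive cells. Wildtype and NASH CD11c-negative arrays overlapped, and every NASH CD11c-positive array was higher than both. NASH CD11c-negative cells were 0.05 ± 0.04 above wildtype (adjusted p = 0.302), or -0.18 under quantile normalization (adjusted p = 0.000282). CD11c-positive NASH cells exceeded CD11c-negative ones by 0.19 ± 0.04 (adjusted p = 0.00174), and the second probe gave 0.24. On slide 2 alone that difference was 0.14 and did not pass (adjusted p = 0.116). Against wildtype the 0.24 ± 0.04 of NASH CD11c-positive cells (adjusted p = 0.000122) became -0.01 after quantile normalization.

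Smad6, the inhibitory SMAD best known for restraining BMP receptors, read 1.50, 0.67, 1.48, 1.65 and 1.58 in wildtype cells, 1.40, 1.35, 1.26, 1.51 and 1.52 in NASH CD11c-negative cells and 0.98, 0.97, 1.10, 1.05 and 1.05 in NASH CD11c-positive cells. Wildtype replicate 2, at 0.67, lay below every other array, and without it the NASH CD11c-positive arrays were lower than all the rest. NASH CD11c-positive cells were 0.38 ± 0.14 lower than NASH CD11c-negative cells (-0.38, adjusted p = 0.038) and -0.35 ± 0.14 from wildtype (adjusted p = 0.0389). Without wildtype replicate 2 the SE was smaller and these were -0.38 (adjusted p = 4.03e-05) and -0.525 (adjusted p = 1.12e-06). NASH CD11c-negative against wildtype cells gave 0.03 ± 0.14 (adjusted p = 0.848), but -0.145 (adjusted p = 0.0287) without that array, -0.10 (adjusted p = 0.0497) on slide 2 alone and -0.09 after quantile normalization, so this sign rests on 1 array and on the scaling. Slide 1, which holds that array, gave -0.37 (adjusted p = 0.265) between the NASH fractions and -0.25 (adjusted p = 0.394) for CD11c-positive cells against wildtype, and slide 2 gave -0.45 and -0.55. With all arrays but 1, the first of these calls was lost without any NASH array other than CD11c-negative replicate 3, and the call against wildtype was lost in 8 of 15 cases, on leaving out any wildtype array other than replicate 2 or any CD11c-positive array other than replicate 3.

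Smad7, which restrains both branches and is itself a TGF-beta target, read 1.36, 1.33, 1.41, 1.39 and 1.23 in wildtype cells, 1.06, 1.12, 0.99, 0.94 and 0.98 in NASH CD11c-negative cells and 1.19, 1.14, 1.00, 1.05 and 1.03 in NASH CD11c-positive cells. The NASH groups overlapped each other below all wildtype arrays. It fell by 0.32 ± 0.05 in NASH CD11c-negative cells (-0.32, adjusted p = 1.93e-05) and by 0.26 ± 0.05 in NASH CD11c-positive cells (-0.26, adjusted p = 0.000145), which was -0.46 and -0.425 relative to the median gene. The NASH fractions differed by 0.06 ± 0.05 (adjusted p = 0.285), and by 0.115 with normexp background correction, which passed (adjusted p = 0.0251).

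Notch2, the receptor, had its lowest level in NASH CD11c-negative cells. It read 2.96, 2.95, 2.97, 3.04 and 2.89 in wildtype cells, 2.63, 2.68, 2.64, 2.64 and 2.75 in NASH CD11c-negative cells and 3.14, 3.14, 3.26, 3.20 and 3.20 in NASH CD11c-positive cells. The groups did not overlap. It fell by 0.30 ± 0.03 from wildtype to NASH CD11c-negative cells (-0.30, adjusted p = 2.14e-06; -0.43 relative to the median gene) and stood 0.52 ± 0.03 higher in CD11c-positive than in CD11c-negative NASH cells (adjusted p = 1.69e-08), a larger absolute difference than 88.1% of all genes had. Both held under quantile normalization, at -0.52 and 0.49. NASH CD11c-positive cells exceeded wildtype by 0.22 ± 0.03 (adjusted p = 3.29e-05), 0.06 relative to the median gene and -0.03 after quantile normalization, so whether they lie above wildtype depends on the scaling. A dim second probe, above background on 3, 2 and 3 of 5 arrays of the groups in the same order, was removed by the filter. It gave -0.28 in the first step, 0.12 in the second and -0.16 for NASH CD11c-positive against wildtype cells. The summed signal of 8 markers of conventional dendritic cells, in which NOTCH2 has a known role, followed the order of Notch2 under the 75th percentile scaling. It was 79.3 to 88.4 in wildtype, 44.9 to 50.6 in NASH CD11c-negative and 102 to 112 in NASH CD11c-positive cells. Single markers did not all do so. In the first step 7 fell and 1 did not pass, and in the second 7 rose and 1 did not pass. Against wildtype, NASH CD11c-positive cells had 6 higher, 1 lower and 1 that did not pass. Xcr1 was at background on all 5 NASH CD11c-negative arrays. The part of dendritic cells in the Notch2 levels was not tested.

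Rbpj, the DNA-binding factor through which Notch receptors act, read 1.36, 1.39, 1.34, 1.39 and 1.45 in wildtype cells, 1.98, 1.91, 1.91, 1.98 and 2.01 in NASH CD11c-negative cells and 2.43, 2.36, 2.45, 2.43 and 2.45 in NASH CD11c-positive cells. The groups rose in that order without overlap. The steps were 0.57 ± 0.03 (adjusted p = 1.97e-10; 0.44 relative to the median gene) and 0.47 ± 0.03 (adjusted p = 8.88e-09), together 1.04 ± 0.03 or 2.05-fold (adjusted p = 1.83e-13). Slide 1 alone gave 0.57, 0.46 and 1.03, and slide 2 alone 0.57, 0.45 and 1.02. The second Rbpj probe, dimmer but above background on all arrays, rose by 0.67 in NASH CD11c-negative cells (adjusted p = 0.0454 over probes), while CD11c-positive cells differed from those by -0.31 (adjusted p = 0.401) and from wildtype by 0.37 (adjusted p = 0.267). With the mean of both probes the step between the NASH fractions was 0.08 and did not pass (adjusted p = 0.665). The second step of Rbpj, and its change of at least 2-fold against wildtype in NASH CD11c-positive cells, therefore rest on 1 of 2 probes.

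The genes with the most similar profiles over the 15 arrays, each centred on its wildtype mean, were Plaur and Glipr1 for Tgfbr1 (Pearson r = 0.997 and 0.995) and Coro1c and Tyms-ps for Rbpj (0.997 and 0.995). They were Usp21 and Irgm2 for Eng (0.994 for both), Lpxn and Rgs18 for Smad3 (0.994 and 0.993) and Dip2b and Itpr3 for Notch2 (0.967 and 0.975). For Smad6, with its single low array, the nearest genes, H2aw and Fas, reached r = 0.852 and 0.851. These points share their groups, so a high r mostly says that group means lie alike, and it is given as a description.

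Other genes of the pathways were taken from 12 lists. Changes called rises or falls below passed at 0.05 in the same limma fit, and the values are log2 differences. Over all genes 48.3% rose and 28.5% fell from wildtype to NASH CD11c-negative cells, and 29.9% rose and 23.2% fell between the NASH fractions. Of the TGF-beta family ligands 12 of 17 were measured, and 8 rose and 4 fell from wildtype to NASH CD11c-negative cells. Gdf3 rose by 3.22 and Gdf15, a stress-induced ligand, by 2.05. Inhba, which encodes the activin A subunit, rose by 2.35 (1.00 with normexp) from a wildtype level above background on 2 of 5 arrays, and Bmp6, the BMP of iron sensing, fell by 1.67 (-1.67). Tgfb1 itself, chosen for mention after its values were seen, rose by 0.32 (0.12 under quantile normalization) and Tgfb3 by 1.76. Between the NASH fractions 2 rose, 6 fell and 4 did not pass; Gdf3 and Gdf15 differed by 0.06 and 0.04, which did not pass, while Inhba and Bmp6 fell by 0.56 and 0.60 (-0.56 and -0.60). The fall of Inhba did not pass on slide 1 alone (adjusted p = 0.164). Bmp2 and Bmp6, which sinusoidal endothelial cells are known to make, fell in both steps, Bmp2 by 1.57 and 0.47 (-1.57 and -0.47), as the endothelial markers did; Bmp2 was also picked after its values were seen.

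Of 9 measured genes that store and activate latent TGF-beta, 7 rose and 2 fell in NASH CD11c-negative cells. Ltbp3, a latent TGF-beta binding protein, rose by 2.34 and, in CD11c-positive cells, by a further 0.74, and Ltbp4 fell by 0.99 and 0.59 (-0.99 and -0.59). The protease gene Mmp14 rose by 1.76 and 0.27, and Thbs1, whose product thrombospondin 1 frees latent TGF-beta, by 1.55, with -0.05 between the NASH fractions, which did not pass.

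Of the 7 other receptors measured, 1 rose, 3 fell and 3 did not pass in NASH CD11c-negative cells, and 1 fell between the NASH fractions. Bmpr1a, a BMP type I receptor, read -0.12 ± 0.07 in wildtype and -2.85 ± 0.25 in NASH CD11c-negative cells (SD, n = 5), a fall of 2.73 (-2.73, adjusted p = 3.07e-10). It was above background on 4 of 5 NASH CD11c-negative arrays, and normexp correction gave -1.66. The coreceptor gene Tgfbr3 fell by 0.80 (-0.80) and Acvr2b, an activin receptor, by 0.34 (-0.34), while Acvr1 rose by 0.43 (0.21 under quantile normalization). Of the other SMADs, Smad2 rose by 0.33, and the BMP branch genes Smad1 and Smad5 fell by 0.26 and 0.38 (-0.26 and -0.38). The mean of the Smad5 probes gave -0.09, which did not pass (adjusted p = 0.201). None of the 3 passed between the NASH fractions.

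Among inhibitors and turnover genes 10 of 16 rose and 2 fell in NASH CD11c-negative cells, with a median of 0.21. Pmepa1, a TGF-beta target that restrains SMAD2 and SMAD3, rose by 1.21, the BMP binder Twsg1 by 0.34, Ski, a SMAD corepressor, by 0.41 (0.24 with normexp) and the ubiquitin ligase gene Nedd4l by 0.18, which became 0.04 and did not pass under quantile normalization. Nog, the BMP antagonist noggin, differed by 0.18, which did not pass, and fell by 0.49 between the NASH fractions (-0.49, adjusted p = 0.0382). The call of Nog was lost in 9 of 26 alternatives: under quantile normalization (adjusted p = 0.0522), without a filter (adjusted p = 0.0674), on slide 2 (-0.34, adjusted p = 0.105), and without CD11c-negative replicate 1, 2 or 3 or CD11c-positive replicate 3, 4 or 5 (-0.48 to -0.38). In that comparison 4 rose, 3 fell and 9 did not pass.

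All 12 listed TGF-beta target genes were measured, and 10 rose and 2 fell in NASH CD11c-negative cells, with a median of 1.00 against 0.13 over all genes; after quantile normalization the median was 0.94. The matrix-associated gene Ccn2 rose by 1.66 and the cell cycle inhibitor gene Cdkn1a by 1.51, while its relative Cdkn2b fell by 1.09 (-1.09). Several of these genes also answer to other signals. Between the NASH fractions 5 rose, 1 fell and 6 did not pass, with a median of 0.06.

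Of the 8 BMP target genes measured, 5 rose and 1 fell in NASH CD11c-negative cells, with a median of 0.53, which was 0.19 under quantile normalization. From there to CD11c-positive cells 1 rose and 6 fell, with a median of -0.45. The Id genes encode inhibitors of helix-loop-helix transcription factors. Id1 read 4.74, 5.33 and 4.79 in wildtype, NASH CD11c-negative and NASH CD11c-positive cells, and Id3 6.35, 6.95 and 6.36, so both rose, by 0.59 and 0.60, and then fell by 0.54 and 0.60 (-0.54 and -0.60); both were named after their values were seen. Under quantile normalization the rises were 0.24 and 0.14. Several marker sums were also highest in NASH CD11c-negative cells, among them the recruited monocyte sum given above. For 10 neutrophil markers the sum was 416 to 436, 1590 to 1740 and 649 to 683 in the 3 groups. For 9 stellate cell and fibroblast markers it was 7.67 to 8.33, 10.8 to 11.6 and 7.68 to 8.13. For 5 macrophage markers it was 925 to 1020, 1160 to 1250 and 909 to 994. Of these 5 markers, 3 rose, 1 fell and 1 did not pass from wildtype to NASH CD11c-negative cells. Their median change was 0.40, and -0.06 under quantile normalization, so the macrophage peak depends on the scaling. The stellate cell and macrophage sums of NASH CD11c-positive cells overlapped wildtype, and the neutrophil and monocyte sums did not. The part of these cells in the Id1 and Id3 levels was not tested. Id2 rose by 0.76 (0.31 under quantile normalization) and fell by 0.12 (-0.12), a fall that did not pass under quantile normalization, with normexp or on slide 1. Id4 fell in both steps, by 0.57 (-0.57, or -0.35 with normexp) and 0.53 (-0.53). Hey1, a target of both BMP and Notch, rose by 1.36 and 0.33. Hamp, the iron hormone gene that hepatocytes express most, fell by 0.84 between the NASH fractions (-0.84, or -0.53 with normexp), as 8 of 9 hepatocyte markers also fell; their part was not tested.

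Of the Notch ligands 4 of 5 were measured. Dll4, a ligand of sinusoidal endothelial cells, fell by 0.56 and 0.57 in the 2 steps (-0.56 and -0.57; -0.30 with normexp in the first), beside the endothelial markers. Dll1 was above background on 4 of 5 wildtype arrays and on no NASH array. Dimmer NASH values were raised to the lowest signal called above background on their array. Dll1 was then 1.62-fold lower in NASH CD11c-negative and 1.99-fold lower in NASH CD11c-positive cells than in wildtype. These folds are estimates and not strict minimum values. With normexp correction the fitted log2 differences of Dll1 were smaller, -0.295 and -0.574 against -1.57 and -1.69. Jag1 was 1.25 higher in NASH CD11c-negative cells (adjusted p = 0.0386), a call that was lost when any 1 of 9 arrays was left out, while without wildtype replicate 4, which stood at -0.45 against -3.67 for the next, the rise was 1.92 (adjusted p = 1.64e-10); slide 2, which holds that array, gave 0.30 (adjusted p = 0.802). Dll3 rose by 0.47, which did not pass on slide 2 (adjusted p = 0.115) or without NASH CD11c-negative replicate 3 (adjusted p = 0.0517), and normexp gave 0.26. Of the other receptors, Notch1 rose by 0.66 and then fell by 0.45 (-0.45; adjusted p = 0.15 on slide 2), and Notch4 fell by 0.33 (-0.33) and then rose by 0.18.

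Of 13 genes for Notch processing 9 rose, 1 fell and 3 did not pass in NASH CD11c-negative cells, a share near the 76.8% of all genes that passed, and the median of 0.22 became -0.03 under quantile normalization. Psen2, a gamma-secretase subunit gene, rose by 0.89 and a further 0.17, and the protease gene Adam17 rose by 0.40. Aph1b rose by 0.52 and 0.60, but the mean of its probes gave -0.14 and 0.20, and Psenen rose by 0.37, or -0.03 under quantile normalization. Between the NASH fractions 4 rose and 2 fell.

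The 20 nuclear cofactors and inhibitors split: 5 rose and 10 fell in NASH CD11c-negative cells, with a median of -0.14, and 11 rose and 2 fell from there to CD11c-positive cells, with a median of 0.20 against 0.01 over all genes. Dtx1, a deltex regulator that is also a Notch target, read -0.23 ± 0.09 in wildtype and -3.17 ± 0.10 in NASH CD11c-negative cells, 7.69-fold lower, and -2.19 ± 0.79 in NASH CD11c-positive cells. The first step was -2.94, or -1.79 with normexp. The second was 0.98, or 0.64 without CD11c-positive replicate 5 and 0.40 on slide 1, and it did not pass with normexp (0.35, adjusted p = 0.115) or on slide 2 (1.38, adjusted p = 0.0566). Dtx3 fell by 0.94 (-0.94, or -0.52 with normexp) and then rose by 0.45, a rise that did not pass with normexp (0.10, adjusted p = 0.231) or on slide 2 (0.305, adjusted p = 0.105). Dtx4 rose by 1.72 and 0.25, and the coactivator gene Crebbp by 0.81 (0.40 under quantile normalization). Of the 3 measured Notch targets, Hes1, a transcriptional repressor, fell from 1.39 ± 0.05 in wildtype to 0.40 ± 0.05 and 0.08 ± 0.06 in the NASH groups (-0.99 and -0.33 in the 2 steps), Dtx1 also fell in the first step, and Hey1 rose in both.

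**Figure D4:**
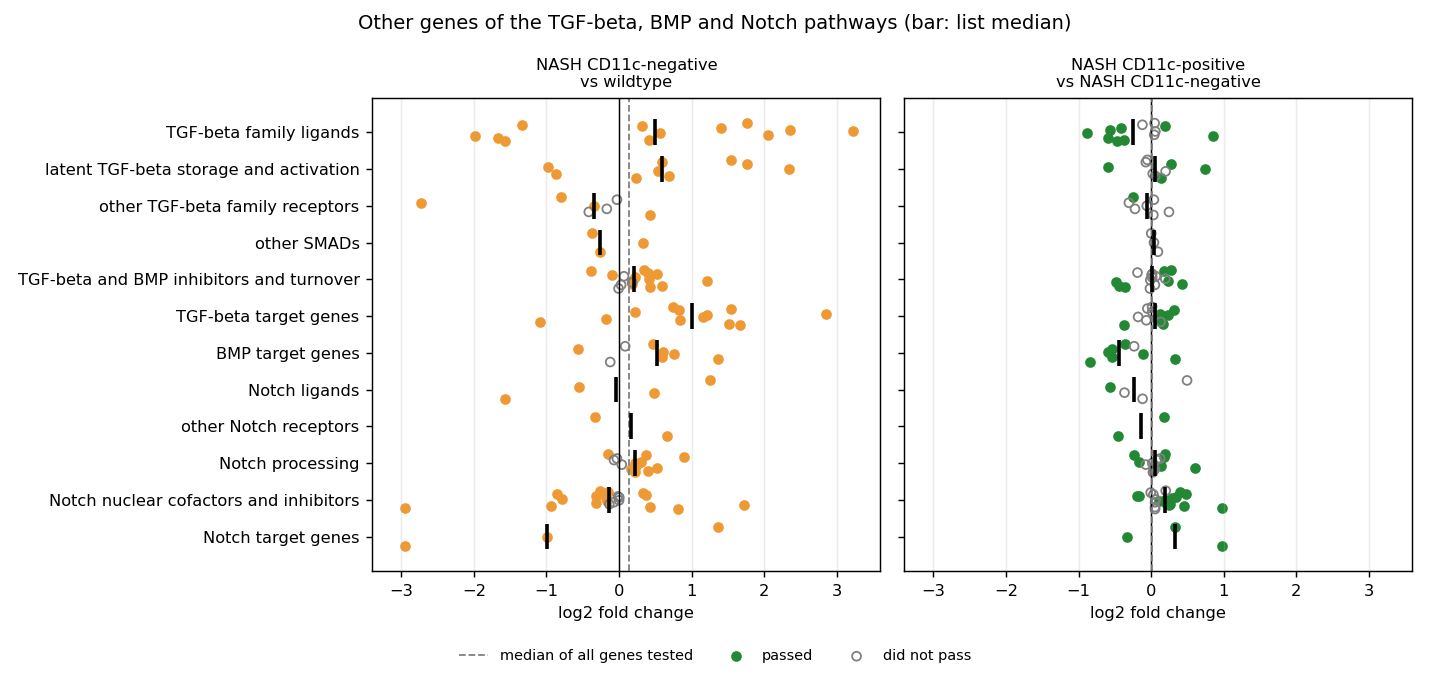
Log2 fold change of each other pathway gene by list (x axis) for NASH CD11c-negative against wildtype cells and for NASH CD11c-positive against CD11c-negative cells, with filled points for genes that passed, open points for those that did not, and a bar at the median of each list. TGF-beta targets have a median of 1.00 in the first panel and 0.06 in the second, and BMP targets 0.53 and -0.45. Some genes appear in 2 lists, among them Dtx1, Hey1 and the TGF-beta targets Pmepa1 and Thbs1.

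In NASH CD11c-positive against wildtype cells, which sums both steps, 51.4% of all genes were higher and 26.3% lower. The median over all genes was 0.16. Of the TGF-beta targets 10 were higher and 2 lower, with a median of 1.06. Of the BMP targets 2 were higher, 2 lower and 4 did not pass. Among those that did not pass were Id1 and Id3, with differences of 0.05 and 0.00. These became -0.26 and -0.37 and passed under quantile normalization. Bmp6 was lower by 2.27 (-2.27), Bmpr1a by 3.04 (-3.04, or -1.97 with normexp) and Hes1 by 1.32 (-1.32), and Ltbp3 was 3.08 higher.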

How the data were processed

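The 15 deposited arrays give for every spot a processed intensity and, in other columns, flags; per the file headers they were made in Agilent Feature Extraction, version 10.7.3.1. A deposited table of log2 values served as an alternative; set against the arrays, it equals log2 intensity less the 75th percentile and the wildtype median (median absolute difference 0.00146).

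Of 62976 spots per array, 3671 control spots and 113 to 190 outlier spots were left out, and none was saturated. The 75th percentile of log2 processed signals was subtracted and spots of a probe were averaged. RefSeq accessions named 26582 of 55681 probes. Probes well above background on at least 4 of 5 arrays of a group were kept, and the brightest stood for its gene (13390 genes). Groups were compared 2-sided in limma 3.58.1 (lmFit, eBayes; R 4.3.3) on all arrays without covariates, and called where p, adjusted by Benjamini-Hochberg over all genes, was under 0.05. The fit was tested on simulated data with independent noise and few changed genes. Such data cannot test the scaling or whether the arrays share pools. The number of arrays limits the precision.

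The 10 genes and all lists were chosen with earlier results of these data known. From each pathway list the text names up to 4 called genes with the largest change in any comparison and the largest in the opposite direction, and for a member of the 10 the 2 genes with the smallest Euclidean distance over the arrays, predicted genes left out; the macrophage, Kupffer cell and endothelial marker lists are named by their 3 brightest genes and the other marker lists described by sums or counts, and further genes are said to be chosen after their values were seen, except Kdr, Xcr1, Itgax and Mc4r, named for a check. A gene that this rule names is not reported here. The alternatives were normexp background correction (offset 50), quantile normalization, no filter or one on all arrays, a replicate block, a slide block, each slide alone, the mean of a gene's probes, the deposited values, only the groups compared, and each array left out. The deviations of samples sharing a replicate number correlated at 0.058 to 0.373 where both lay on the same slide. Where they lay on different slides the correlations were -0.198 and -0.171, so slide and number cannot be told apart there. The best match was not always the sample of the same number and the labels give no pairs, so the numbers were not taken as pairs.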

Additional observations from a re-analysis of the deposited data

Results flagged for a closer look

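Single arrays stood apart from the other 4 of their group in 10 of 159 groups of 5 arrays tested (a gap over 0.71 of the group's range), and chance alone gives about 1 in 20. Among the 10 genes 2 of 30 groups were affected. Smad6 read 0.671 on wildtype replicate 2, and Rbpj 2.363 on NASH CD11c-positive replicate 2, which still lay above all other groups. Among other pathway genes Gdf15 read 4.295 on wildtype replicate 2, Ltbp3 -0.415 and Pmepa1 -0.742 on wildtype replicate 3, and Jag1 -0.448 on wildtype replicate 4. In NASH CD11c-negative cells Hamp read -1.681 on replicate 2. In NASH CD11c-positive cells Bmpr1a read -2.574 on replicate 2, Dtx1 -0.84 on replicate 5 and Dtx3 -1.691 on replicate 1.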

How the results depend on the processing

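For the 10 genes, 735 of 780 values under the alternatives kept direction and side of the threshold, and 16 of 30 changes did so under all. In NASH CD11c-negative against wildtype cells quantile normalization reversed Acvrl1 (-0.223), Tgfbr2 (-0.065), Smad4 (-0.176) and Smad6 (-0.086), and slide 2 alone Smad6 (-0.1); with an array left out Smad6 ran from -0.145 to 0.099. Between the NASH fractions normexp correction gave Tgfbr2 0.126 and Smad7 0.115, which then passed, and Smad3 0.037; quantile normalization gave Tgfbr2 0.114, which passed; without a filter Smad6 (-0.379) did not pass. Slide 1 alone gave Smad3 0.005 and Smad6 -0.366 and slide 2 Smad4 0.144, none of which passed; the mean of probes gave Tgfbr2 -0.119, which passed, and Rbpj 0.078, which did not. With an array left out Smad3 ran from -0.037 to 0.02 and Smad6 from -0.416 to -0.351. For NASH CD11c-positive against wildtype cells quantile normalization gave Acvrl1 -0.4, which passed, Smad4 -0.013 and Notch2 -0.028. Acvrl1 passed with slide as a block (-0.097) and on slide 2 (-0.091). Smad6 did not pass without a filter (-0.348), on slide 1 (-0.247) or with only the groups compared (-0.348), and ran from -0.525 to -0.28 with an array left out. The cause was not tested.

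With the replicate block 10736, 7948 and 10776 genes passed against 10280, 7116 and 10392 without, and 8, 8 and 9 of the 10; Tgfbr2 between the NASH fractions (0.065, adjusted p = 0.0487) passed with it, not every array correlated best with its own number, and no other of the 10 changed its call. Other genes that reversed were, for NASH CD11c-negative against wildtype cells, Psenen under quantile normalization (-0.03) and Nedd4l and Aph1b with the mean of probes (-0.226 and -0.141). Between the NASH fractions they were Thbs1 (0.01) and Ski (-0.058) with normexp, Smad5 and Dll1 under quantile normalization (-0.042 and 0.035), Smad5 with slide as a block (-0.01), on slide 2 (-0.025), with the mean of probes (-0.023) and with arrays left out (-0.019 to 0.017), Bmpr1a on slide 1 (0.046) and Adam17 on slide 2 (-0.005). In NASH CD11c-positive against wildtype cells they were Dll3 with normexp (-0.083) and Psenen under quantile normalization (-0.208). Signal near background limits, among others, Jag1, Dll1, Inhba, Bmpr1a, Ski, Hamp and the dim probes of Smad3 and Notch2. Dtx1 and Dll3 were above background on all arrays but also read low, at -3.17 for Dtx1 in NASH CD11c-negative cells and -3.04 for Dll3 in wildtype cells.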
